A study of Mus musculus with 2 samples.

Results

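Testis at day 10 after birth was examined for 10 well-known imprinted genes: H19, Igf2, Igf2r, Peg3, Mest, Cdkn1c, Snrpn, Ndn, Grb10 and Plagl1. All probe sets annotated to exactly 1 of these symbols were taken, which gave 15 probe sets of 8 genes among 12422 non-control probe sets on the array. H19 was read by a probe set that carries a second name, Mir675, so its value stands outside that rule and is given as such. Snrpn had no value here. The samples were testes of Mili-/- mice and testes of Mili+/- mice, both at day 10 after birth, with polyadenylated RNA of each genotype on 1 single-colour array. Mili (Piwil2) encodes a germline Piwi protein that binds piRNAs, and per the labels its loss stops spermatogenesis early in meiotic prophase. Both genotypes carry at least 1 mutant allele, because the controls were heterozygous. The labels give neither the number of mice behind each array nor the construction of the allele, strain or littermate status, and no probe set of Mili was available to check the genotypes.

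Imprinted genes are transcribed mainly from the copy inherited from 1 parent, under the control of CpG methylation laid down in the germ line of the mother or the father. Several of them act on growth: Igf2 promotes it, while Igf2r, H19, Cdkn1c and Grb10 restrain it. In the male germ line the inherited marks are erased and paternal ones are set before birth, and in mice the piRNA pathway is known to be needed for the paternal methylation of the imprinted locus Rasgrf1. The array reads total transcript and cannot tell the parental copies apart.

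The H19 probe set shares its annotation with Mir675, a miRNA that is cut from the H19 transcript. Its mature sequences, from RefSeq (GRCm38.p6, chromosome 7, minus strand), are shown with the seed, bases 2 to 8, in capitals, to make clear which small RNA is meant; the array gave no separate value for it.
mmu-miR-675-5p: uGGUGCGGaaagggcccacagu
mmu-miR-675-3p: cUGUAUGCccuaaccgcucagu

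RefSeq promoter windows of 300 bases (250 before and 50 after a start site, GRCm38.p6) were matched for 8 of the 10 genes, in 17 windows. Those of Igf2r, Mest, Peg3 and Plagl1 are shown because CpG methylation near the start site is part of the known imprinting of each of these genes in mice. Each CpG dinucleotide is in capitals.
Igf2r, chr17:12769657-12769956, minus strand: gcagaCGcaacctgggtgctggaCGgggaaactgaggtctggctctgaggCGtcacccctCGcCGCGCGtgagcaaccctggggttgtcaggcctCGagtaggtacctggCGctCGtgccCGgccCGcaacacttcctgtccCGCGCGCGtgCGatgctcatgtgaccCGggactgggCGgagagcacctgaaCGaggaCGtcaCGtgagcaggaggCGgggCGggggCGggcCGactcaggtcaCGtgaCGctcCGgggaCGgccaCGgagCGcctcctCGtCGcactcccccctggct
Mest, chr6:30737800-30738099, plus strand: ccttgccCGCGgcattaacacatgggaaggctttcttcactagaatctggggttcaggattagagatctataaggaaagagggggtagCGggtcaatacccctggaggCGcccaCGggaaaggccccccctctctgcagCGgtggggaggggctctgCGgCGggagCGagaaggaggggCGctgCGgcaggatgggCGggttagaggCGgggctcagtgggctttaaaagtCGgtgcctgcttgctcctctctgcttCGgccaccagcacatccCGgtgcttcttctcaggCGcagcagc
Peg3, chr7:6730370-6730669, minus strand: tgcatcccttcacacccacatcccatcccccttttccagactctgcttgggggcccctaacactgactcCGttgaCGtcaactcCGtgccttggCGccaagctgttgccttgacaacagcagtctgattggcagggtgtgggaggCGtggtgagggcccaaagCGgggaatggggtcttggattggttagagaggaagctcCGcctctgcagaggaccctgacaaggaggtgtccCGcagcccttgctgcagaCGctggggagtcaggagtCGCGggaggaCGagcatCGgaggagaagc
Plagl1, chr10:13090582-13090881, plus strand: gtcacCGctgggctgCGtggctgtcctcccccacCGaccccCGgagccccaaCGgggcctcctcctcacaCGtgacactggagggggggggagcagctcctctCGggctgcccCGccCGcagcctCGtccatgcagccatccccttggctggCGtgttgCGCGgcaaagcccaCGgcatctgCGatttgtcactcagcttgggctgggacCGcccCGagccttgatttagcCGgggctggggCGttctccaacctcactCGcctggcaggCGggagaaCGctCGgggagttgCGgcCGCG
The Igf2r window held 34 CpG dinucleotides, the Plagl1 window 26, the Mest window 17 and the Peg3 window 13, against a median of 7 over all 32851 windows in the table. At least 34 CpG were found in 7.73% of all windows. The 17 windows of these genes held 2 to 45 CpG, and 11 of them held more than that median. Those at or below it were the 4 Snrpn windows (2 to 7) and 2 of Igf2 (2 and 7), and a second Mest start site had 8. TGCCGC, the motif bound by the imprint-maintaining zinc finger protein ZFP57 in mice, was searched on both strands. It occurred in 6 of the 17 windows of these genes (in Grb10, Igf2, Mest, Plagl1 and Snrpn, with 2 overlapping windows for Mest) and in 11.6% of all windows. No methylation was measured in this study, so these sequences are context and not a readout.

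Signals are deposited linear intensities. Differences are log2, Mili-/- minus Mili+/-, after a floor at the 20th percentile of each array (7 in Mili-/- and 6.3 in Mili+/-) and centring on each array's median. A probe set was compared if its brighter array reached the median of that array, 41.55 in Mili-/- or 38.5 in Mili+/-. There was 1 array per genotype, so no value has a replicate, no p-value is given, and every difference describes these 2 arrays. The yardstick given beside them is the SD of 0.31 among probe sets that share a gene, taken over 720 genes, which covers no difference between animals or hybridisations. The median difference of the 6484 probe sets past the filter was -0.12, and the members are also given relative to it, because centring on the array medians removed a shift of 0.11.

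The imprinted genes that could be compared differed by less than 1.5-fold between the 2 arrays. Of the 15 probe sets, 10 probe sets of 7 genes passed the filter, all 10 of them on both arrays. None was 2-fold higher or lower, where 1.16% of all probe sets past the filter were. None reached 1.5-fold either, where 8.27% of all did. With so few probe sets, a count of 0 is near these background shares. Their differences ran between -0.44 for Igf2r and 0.19 for a Peg3 probe set, with a median of -0.13, against -0.12 for all probe sets past the filter. Of the 10, 5 lay above and 5 below that overall median, and 9 lay within 1 SD of it.

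**Figure D1:**
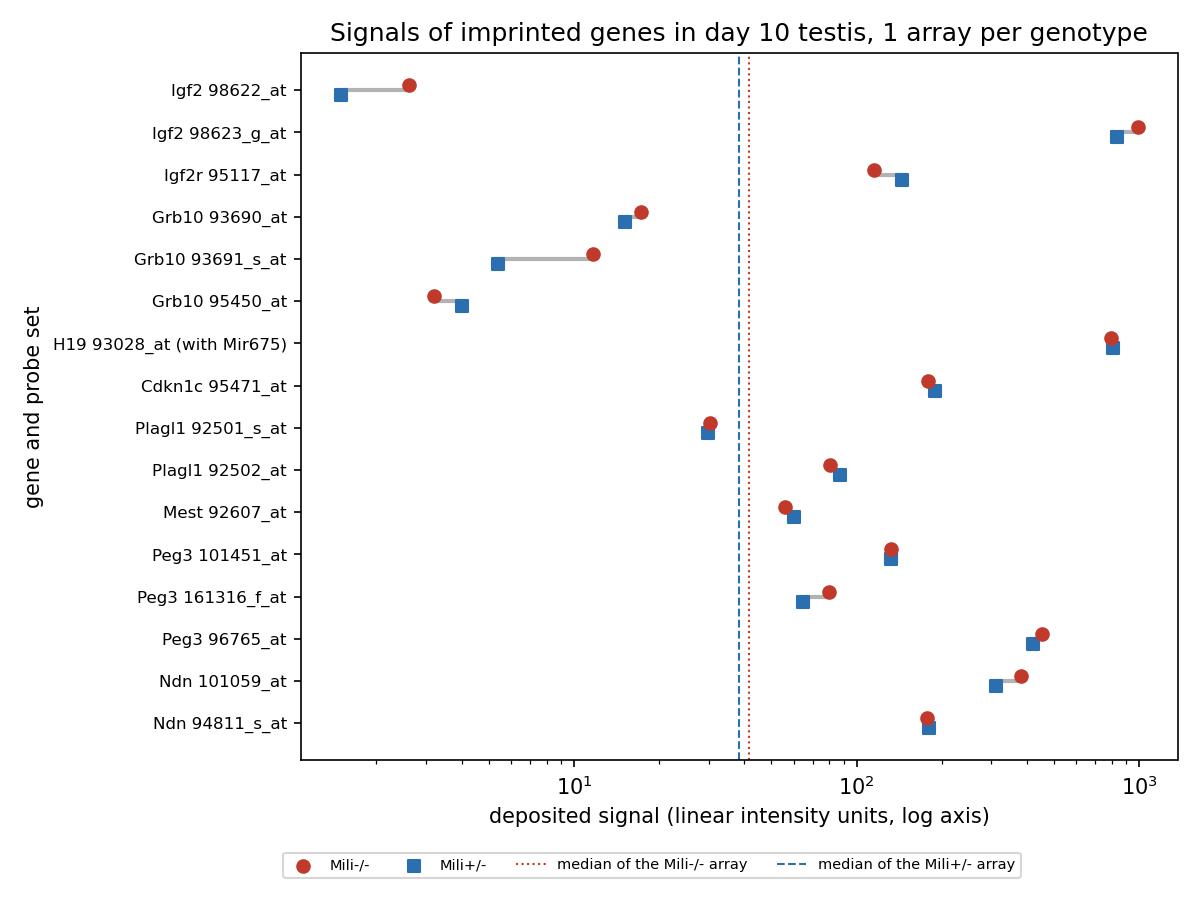
Deposited signal of each probe set of the imprinted genes (log axis) in the Mili-/- array (circles) and the Mili+/- array (squares), 1 array each, with dotted and dashed lines at the array medians. Points of a pair lie close together except for dim probe sets of Igf2 and Grb10 at the left, whose signals were at most 11.7 in Mili-/- and 5.4 in Mili+/- for the widest pair of Grb10.

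Among growth ligands and receptors, Igf2 and Igf2r differed in opposite directions. Igf2 encodes a fetal growth factor expressed from the paternal copy, and its bright probe set (suffix g_at, probes shared with a sister set) read 988 in Mili-/- and 836 in Mili+/-, a difference of 0.13. Relative to the median probe set this was 0.25 higher, within the SD of 0.31, and 87.6% of the 3319 probe sets of like brightness (at or above the 75th percentile of either array) had a lower difference. A second Igf2 probe set made from the same sequence record had 2.6 in Mili-/- and 1.5 in Mili+/-. Both values lay under the floor, so no fold is given for it.

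Igf2r encodes the cation-independent mannose 6-phosphate receptor, which takes up IGF2 for degradation and is expressed from the maternal copy in most mouse tissues. Its only probe set read 115 in Mili-/- and 144.9 in Mili+/-, a difference of -0.44 or 1.36-fold lower. That was the largest absolute difference among the members past the filter. It stood 0.32 below the median probe set, about 1 SD of 0.31. Of the 3319 probe sets in the same wide brightness class, 8.92% had a lower difference still, so the value lay inside their central 95% range of -0.64 to 0.40. No second probe set was available to set against it.

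Grb10 encodes an adaptor that binds the insulin and IGF1 receptors and dampens their signalling; it is expressed from the maternal copy in most tissues. None of its 3 probe sets passed the filter. The brightest had 17.2 in Mili-/- and 15.2 in Mili+/-, and the dimmest had 3.2 in Mili-/- and 4 in Mili+/-, under the floor on both arrays. The third, of shared sequence (suffix s_at), had 11.7 in Mili-/- and 5.4 in Mili+/-. Its difference of 0.78 depended on the floor, since the Mili+/- signal lay under it. The difference was 0.02 with a floor at the 40th percentile and 1.004, just past 2-fold, without a floor. At these signals a change of Grb10 could be neither read nor excluded.

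The maternally expressed growth restraints H19 and Cdkn1c were close to the median of all probe sets. H19 is a long non-coding RNA that lies next to Igf2 and competes with it for shared enhancers. The probe set annotated to H19 and Mir675 had 797 in Mili-/- and 805 in Mili+/-, a difference of -0.13 and -0.01 relative to the median probe set. Cdkn1c encodes the cyclin-dependent kinase inhibitor p57, and its probe set had 179.6 in Mili-/- and 190 in Mili+/-, a difference of -0.19 or 0.07 below the median. Cdkn1a, the p21 gene of the same inhibitor family and not imprinted, had 65.6 in Mili-/- and 48.6 in Mili+/- (0.32). A dimmer Cdkn1a probe set went the other way, with 19.7 in Mili-/- and 22.5 in Mili+/- (-0.30).

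**Figure D2:**
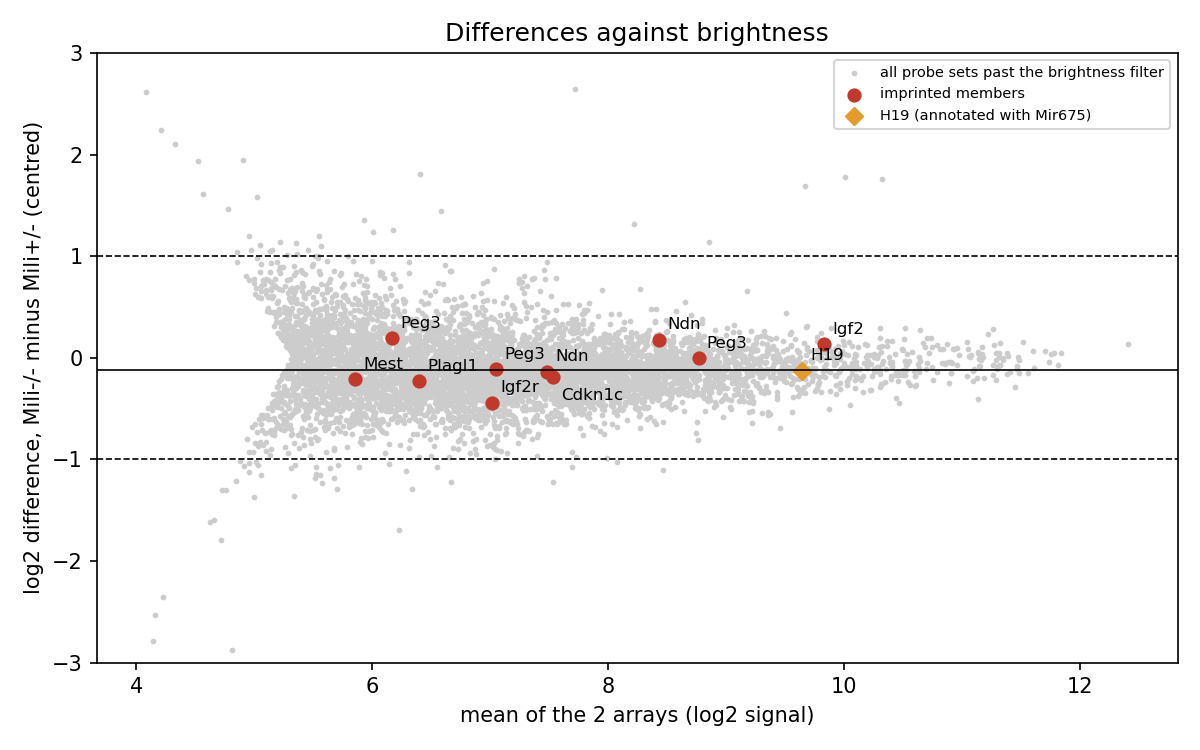
Log2 difference (Mili-/- minus Mili+/-, centred) against mean log2 signal for all probe sets past the brightness filter (grey) and for the imprinted genes (named), with dashed lines at 2-fold and a solid line at the median of -0.12. All named points lie inside the grey cloud, between -0.44 for Igf2r and 0.19 for Peg3.

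The paternally expressed transcription regulators Peg3 and Plagl1 gave small differences. Peg3 encodes a zinc finger protein implicated in growth and maternal behaviour in mice, and it had 3 probe sets past the filter. The brightest had 452 in Mili-/- and 420 in Mili+/- (0.00). The next had 132.5 in Mili-/- and 132.9 in Mili+/- (-0.11). The third, whose suffix (f_at) marks sequence shared within a family, had 79.8 in Mili-/- and 64.8 in Mili+/- (0.19). The 3 spanned 0.30 on the log2 scale, about the SD of 0.31 between probe sets of 1 gene. All 3 lay above the median probe set under each scaling tried, by 0.01 to 0.31 after centring.

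Plagl1, also called Zac1, encodes a zinc finger factor that regulates other imprinted genes. Its brighter probe set had 80.8 in Mili-/- and 87.7 in Mili+/- (-0.23, or 0.11 below the median). The other did not pass the filter and had 30.4 in Mili-/- and 29.8 in Mili+/- (-0.08). Both probe sets differed from the overall median by less than the SD.

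Mest and Ndn, also expressed from the paternal copy, went to either side of the median. Mest encodes a protein of the hydrolase family known from mesoderm and fat tissue, and its probe set had 55.9 in Mili-/- and 60 in Mili+/- (-0.21). Ndn encodes necdin, a growth suppressor of the MAGE family in the imprinted cluster that also holds Snrpn. Its brighter probe set had 381 in Mili-/- and 312 in Mili+/- (0.18), 0.30 above the median probe set. In the same wide brightness class, 90.8% of the 3319 probe sets had a lower difference. The second Ndn probe set, of shared sequence, did not share this, with 177.4 in Mili-/- and 180.7 in Mili+/- (-0.14, or -0.02 relative to the median). The 2 were 0.32 apart, as far as probe sets of 1 gene typically scatter. The related MAGE genes Maged1 (1776 in Mili-/- and 1526 in Mili+/-, 0.11) and Maged2 (767 in Mili-/- and 712 in Mili+/-, 0.00), which lie on the X chromosome, stood slightly above the median too.

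No probe set read Snrpn, which encodes the spliceosomal protein SmN. The related gene Snrpb is given beside it. Snrpb2, a spliceosomal gene of similar symbol that is not a paralog of Snrpn, is given too. Neither value stands in for Snrpn. Snrpb had 1916 in Mili-/- and 1630 in Mili+/- (0.12), in a probe set of relaxed selection. A second Snrpb probe set had 9.5 in Mili-/- and 2.8 in Mili+/-, the second of these under the floor. Snrpb2 passed the filter in Mili-/- only, with 68.6 in Mili-/- and 31.7 in Mili+/-, a centred difference of 2.01-fold, also by relaxed selection. Its second probe set had 30.9 on both arrays (-0.11) and did not share the difference.

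Scaling changed the sign of some of these small values, so they are also given relative to the median probe set. Of the 10 probe sets, 5 lay above it and 4 below it under all 4 scalings (centred, as deposited, quantile normalized and loess on brightness), and the s_at probe set of Ndn took both signs. The first 2 of these scalings give identical relative values by construction. Igf2r stood between -0.32 and -0.30, and the bright Igf2 probe set between 0.20 and 0.25.

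**Figure D3:**
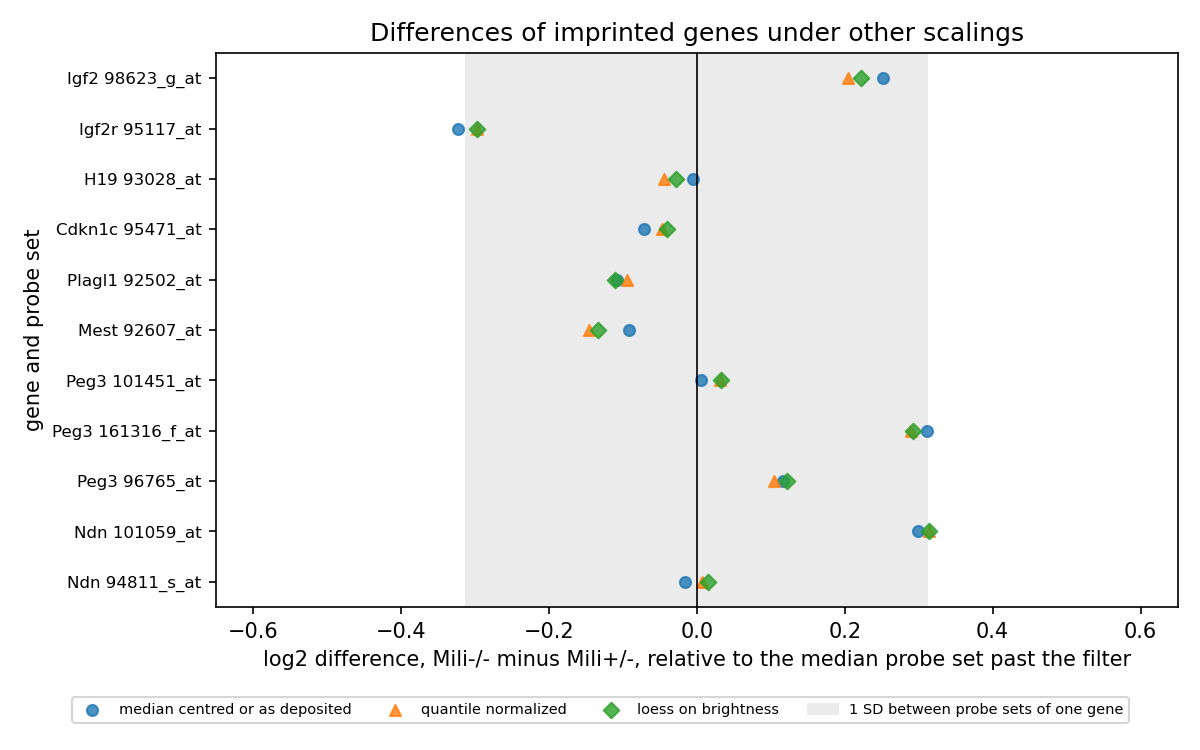
Log2 difference (Mili-/- minus Mili+/-) of each probe set past the filter, relative to the median probe set, under median centring or as deposited (circles), quantile normalization (triangles) and loess (diamonds); the grey band is 1 SD between probe sets of the same gene (0.31). Igf2r lies at the left edge of the band and the f_at probe set of Peg3 and the brighter one of Ndn at its right edge, and the other probe sets lie inside it.

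At 1 probe set per gene, that with the highest mean signal, the median of the 7 imprinted genes past the filter was -0.19, against -0.13 over all 5095 genes past it. The 2 maternally expressed genes that passed, Igf2r and Cdkn1c, stood at -0.44 and -0.19. The 5 paternally expressed ones had a median of 0.00 and ranged from -0.23 for Plagl1 to 0.18 for Ndn. The ranges overlapped, and groups of 2 and 5 genes on single arrays allow no statement on parental origin.

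A wider list of 71 other imprinted genes was set beside them, of which 41 had a probe set and 22 passed the filter. These 22 genes centred on -0.18, beside a median of -0.13 for all genes compared. Relative to that overall median, 10 of them stood higher and 12 lower. Around 0 the split was 7 above and 15 below. None reached 2-fold, where 0.844% of all genes past the filter did. At 1.5-fold, 1 was higher and 5 were lower, 6 of 22, where 7.52% of all genes past the filter were called (2.47% higher and 5.04% lower). Scaling changed the split, to 1 higher and 2 lower with values as deposited and to 1 higher and 3 lower after quantile normalization or loess. The share of all genes was not recomputed for these scalings.

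The lowest was Ube3a, a ubiquitin ligase gene in the same imprinted cluster as Ndn and silenced on the paternal copy in neurons, with 62.3 in Mili-/- and 113.8 in Mili+/- (-0.98, 1.97-fold lower). Slc38a4, an amino acid transporter gene, had 26.7 in Mili-/- and 43.8 in Mili+/- (-0.82), and Phlda2, a placental growth restraint next to Cdkn1c in its imprinted cluster, had 26 in Mili-/- and 38.5 in Mili+/- (-0.68). Dhcr7, the last enzyme of cholesterol synthesis, had 80.7 in Mili-/- and 115.6 in Mili+/- (-0.63), and Sfmbt2, a Polycomb gene, had 124.9 in Mili-/- and 173.8 in Mili+/- (-0.59). The only one higher was Kcnq1, a potassium channel gene, with 100.2 in Mili-/- and 56.8 in Mili+/- (0.71), read by a probe set of relaxed selection. Its other probe set, with 5.4 in Mili-/- and 6 in Mili+/-, lay under the floor. Slc38a4, Phlda2 and the brain gene Nnat (33.9 in Mili-/- and 46.5 in Mili+/-, -0.57) were bright enough in Mili+/- only, and such a gene is more likely to stand lower in Mili-/-. When both arrays had to be bright enough, 19 genes were left, with 1 higher and 3 lower at 1.5-fold, where 4.93% of all 4725 genes were called.

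The Dlk1 and Meg3 locus, whose methylation is set on the paternal copy, gave its members separate values. Meg3, a non-coding RNA of the maternal copy, had 159.9 in Mili-/- and 195.3 in Mili+/- (-0.40), and its second probe set had 55.8 in Mili-/- and 74.3 in Mili+/- (-0.52). Both Meg3 probe sets were thus lower in Mili-/-. Dlk1, the paternally expressed gene of a Notch-related surface protein, had 934 in Mili-/- and 872 in Mili+/- (-0.01). Rasgrf1, the locus whose paternal methylation depends on piRNAs, was under the floor on both arrays, at 1.8 in Mili-/- and 1.2 in Mili+/-, so no difference could be read.

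Gnas, which encodes the stimulatory G protein alpha subunit, had 2809 in Mili-/- and 2351 in Mili+/- (0.15) for a probe set of shared sequence. Its dimmer probe sets did not pass the filter, and they had 6.8 in Mili-/- (under the floor) and 21.7 in Mili+/-, and 18.1 in Mili-/- and 19.4 in Mili+/-. Commd1 (-0.31), Blcap (-0.28), Osbpl5 (-0.28) and H13 (-0.18) were the remaining genes among the 12 largest differences of the list. After centring all 4 lay below the median of all genes, by less than 1 SD.

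**Figure D4:**
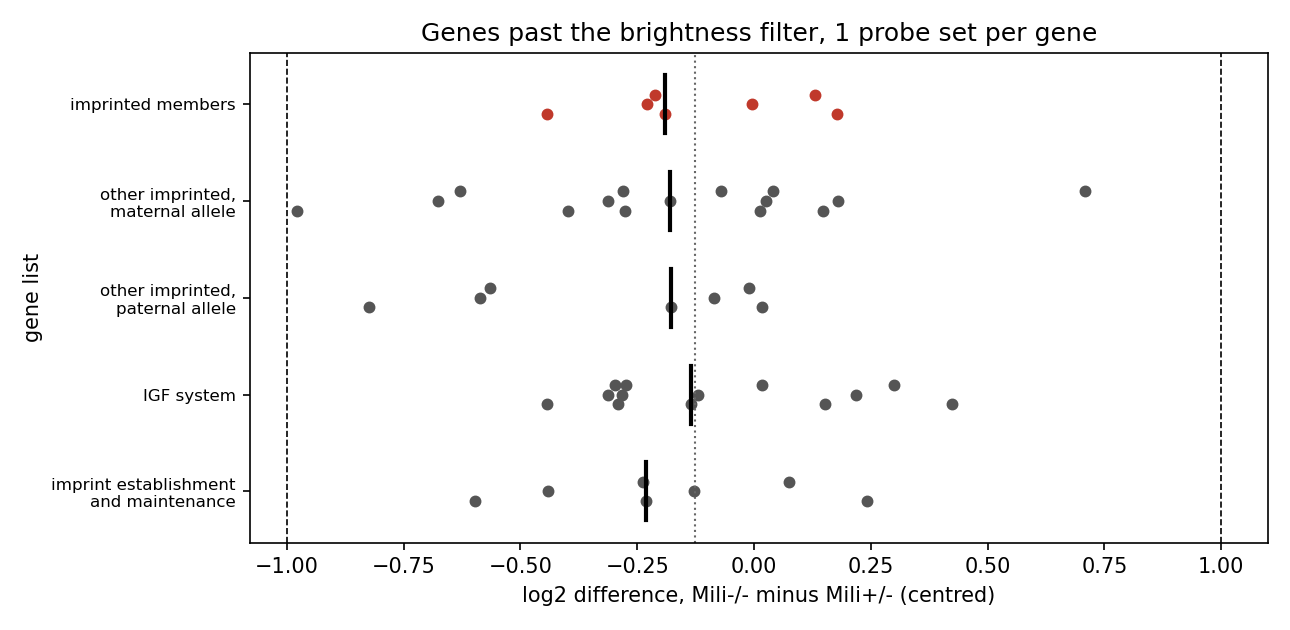
Log2 differences (Mili-/- minus Mili+/-, centred) of genes past the brightness filter, 1 point per gene, for the imprinted members (7 genes), other imprinted genes of maternal (15) and paternal (7) expression, the IGF system (13) and genes of imprint establishment and maintenance (7). Black bars are list medians, the dotted line is the median of all genes (-0.13) and dashed lines mark 2-fold; no point crosses them.

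The wider IGF system, through which Igf2, Igf2r and Grb10 act, was read for 18 of 25 listed genes, and 13 passed the filter with a median of -0.13. None reached 1.5-fold, where 7.52% of all genes past the filter did, so a count of 0 among 13 is near the background. Igf1, the postnatal growth factor, was the highest, with 163.4 in Mili-/- and 112.9 in Mili+/- (0.42), and a second probe set had 43.7 in Mili-/- and 36.7 in Mili+/- (0.14). Its receptor gene Igf1r had 195.3 in Mili-/- and 220 in Mili+/- (-0.28). Igf2bp1, which encodes a protein that binds Igf2 and other mRNAs, was the lowest, with 63.7 in Mili-/- and 80.3 in Mili+/- (-0.44). The binding protein genes Igfbp2 (-0.31) and Igfbp4 (-0.30, and -0.44 in a second probe set) and the protease gene Htra1 (-0.29) were on the low side. The adaptor gene Irs2 (0.30) and the Grb10 relative Grb7 (0.22) were on the high side. Irs2, with 44.9 in Mili-/- and 33.8 in Mili+/-, was bright enough in Mili-/- only, as was the second Igf1 probe set, and such a gene is more likely to stand higher in Mili-/-. Insr, the insulin receptor gene, did not pass the filter, at 8 in Mili-/- and 3.7 in Mili+/-.

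Genes that set or keep imprints were read for 10 of 18, and 7 passed the filter, with a median of -0.23. The de novo DNA methyltransferase gene Dnmt3a had 36.3 in Mili-/- and 50.9 in Mili+/- (-0.60), past 1.5-fold, and was bright enough in Mili+/- only. Without centring its difference was -0.49, short of 1.5-fold, and it was -0.56 after loess and -0.58 after quantile normalization. As the mean of its probe sets it was -0.28. The second probe set, at 0.9 in Mili-/- and 3.8 in Mili+/-, lay under the floor on both arrays, so that mean holds no second reading. Ctcf, which encodes the insulator protein that binds the unmethylated H19 control region, had 125.9 in Mili-/- and 158.4 in Mili+/- (-0.44). The chromatin gene Mbd3 had 306 in Mili-/- and 240.2 in Mili+/- (0.24).

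Testis markers were present on both arrays, and their sums moved beside these values. The summed signal of 11 measured of 19 germ cell markers was 2990 in Mili-/- and 3506 in Mili+/-. The 8 past the filter had a median of -0.41, Dazl (-0.28) and Uchl1 (-0.27) being the brightest. Of these 8, 3 were lower by 1.5-fold, Sall4 among them, and 0 were higher. Among all genes past the filter, 5.04% were lower by 1.5-fold. For Sertoli cells (13 of 18 measured) the sum was 7913 in Mili-/- and 6768 in Mili+/- with a median of 0.14, led by Clu (0.05) and Aard (0.18). For Leydig cells (10 of 13) it was 1960 in Mili-/- and 1714 in Mili+/- with a median of -0.23. Nr5a1 (883.4 in Mili-/- and 602.2 in Mili+/-, 0.44) and Fads1 (0.09) were the brightest. The rise in Nr5a1 was larger than the rise in the whole sum. Of the 7 past the filter, 3 lay above the median of all genes and 4 below it, and Nr5a1 and Fads1 were the only 2 above 0. The 5 below 0 were Cyp17a1 (-0.37), Thbs2 (-0.36), Hsd3b1 (-0.36), Star (-0.23) and Cyp11a1 (-0.06). For peritubular and stromal cells (15 of 15) the sum was 8037 in Mili-/- and 7425 in Mili+/- with a median of 0.02, led by Dcn (0.04) and Col1a1 (0.04). The largest list differences were those of fat and red blood cell markers. Adipose markers (8 of 10) summed to 558 in Mili-/- and 286 in Mili+/-, and the 5 past the filter had a median of 0.90, with 4 past 1.5-fold and Lep (0.56) and Scd1 (0.91) the brightest. Erythroid markers (7 of 12) summed to 2093 in Mili-/- and 1551 in Mili+/-, and the 4 past the filter had a median of 0.80, with 3 past 1.5-fold and Hba-a1 (0.28) and Tspo2 (0.95) the brightest. Several of these, Adipoq, Fabp4, Car3, Alas2 and Rhd, were bright enough in Mili-/- only. Such genes are more likely to stand higher in Mili-/-, which can raise the medians and counts of these 2 lists. Adipoq itself sets the adipose median of 0.90. For comparison, the share called higher by 1.5-fold among all 5095 genes compared was 2.47%. Endothelial markers (9 of 10) summed to 535 in Mili-/- and 459 in Mili+/-, and the 3 past the filter had a median of 0.45, with Eng (-0.25) and Cdh5 (0.45) the brightest. Macrophage markers (11 of 12) summed to 1039 in Mili-/- and 939 in Mili+/- with a median of 0.10, and C1qc (-0.06) and C1qb (0.12) were the brightest. In the other marker lists, Pecam1 (0.45) and Cx3cr1 (0.68) were bright enough in Mili-/- only. Sall4 (-0.84) and Star, which sets the Leydig median of -0.23, were bright enough in Mili+/- only. None of the marker probe sets was at 0. The part of cell composition in the values of the imprinted genes was not tested, and in whole testis fewer cells of a type and less RNA per cell cannot be told apart.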

How the data were processed

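Per the labels, polyadenylated RNA from day 10 testes was measured on 2 single-colour arrays, 1 per genotype. The authors deposited linear intensities, with a single value for each probe set. From the values they appear already scaled to a common level, since the mean without the lowest and highest 2% was 99.5 on both arrays. Software, background correction and scale factor were not given in the sources used here. The number of arrays limits precision, and no detection calls were used.

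Control probe sets (66 of 12488) were left out. Of the other 12422, 10833 had 1 gene symbol, 396 had several and 1193 are unnamed here. Symbols were updated by Entrez ID in a RefSeq gene table (10817 matched), whose sequence tables supplied promoters and miRNAs. Signals were floored, put on the log2 scale and centred as described above. No test was possible. Lists took a gene's probe set with the highest mean signal (8251 genes). The SD between probe sets of a gene came from 1533 probe sets of 720 genes.

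The genes and all lists were chosen with earlier results of these data known. Named were all members, the 12 other imprinted genes with the largest absolute difference plus Rasgrf1, Dlk1, Meg3, Gnas and Nnat, 6 IGF genes plus Igf1, Igf1r and Insr, 3 imprint genes, relatives of members, and up to 2 of the brightest markers of each cell list. Alternatives covered scaling, floor, filter, probe set choice and fold threshold. The code was tested on simulated data. Python 3.11.15, NumPy 2.4.6, pandas 2.3.3, statsmodels 0.14.6 (loess, span 0.4) and matplotlib 3.10.9 were used.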

Additional observations from a re-analysis of the deposited data

How the results depend on the processing

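The alternatives were no centring, quantile normalization, loess on brightness, no floor, a floor at the 40th percentile, no brightness filter, a filter at the 75th percentile or on both arrays, averaging a gene's probe sets, no suffixed probe sets, and fold thresholds of 1.5 and 3. Under each that applied, 0 imprinted member probe sets passed the fold threshold in either direction, with 7 to 15 probe sets compared. The list median of the members ranged from -0.20 to 0.00. That of the other imprinted genes ranged from -0.28 to 0.04 for the maternal allele and from -0.19 to -0.03 for the paternal allele. It ranged from -0.27 to 0.01 for the IGF system and from -0.23 to -0.12 for the imprint genes. The maternal and IGF medians thus took both signs. All moved by less than the SD of 0.31, but that SD is of single probe sets and is wide beside such medians. Medians of relatives and of cell markers were not recomputed. Values that moved by more were those of dim probe sets: the s_at probe set of Grb10 stood at 0.02 with the floor at the 40th percentile, and without a floor the dimmest Grb10 probe set stood at -0.43 and the dim Igf2 probe set at 0.68. The s_at probe set of Grb10 stood at 1.004 without a floor, and that move was smaller than the SD. Averaging probe sets put Kcnq1 at 0.38 and Dnmt3a at -0.28, each by adding a probe set that lay under the floor on both arrays. For the other imprinted genes, counts at 1.5-fold were added after the data were seen. The share of all genes was recomputed only for the filter on both arrays. Counts under the other alternatives therefore have no background share to be read against. The number 1.5-fold higher was 0 under averaged probe sets (22 compared), no suffixed probe sets (16) or the filter at the 75th percentile (12). Without the filter 41 were compared, with 5 higher and 6 lower. The number 1.5-fold lower was 1 with the filter at the 75th percentile, 2 without centring, and 3 with the filter on both arrays, quantile normalization or loess. The filters and the choice of probe sets changed how many genes were compared. Centring shifts every difference by 0.11, and without it Phlda2 (-0.57), Dhcr7 (-0.52) and Sfmbt2 (-0.48) fell short of 1.5-fold. After quantile normalization and after loess, Dhcr7 (-0.50 in each) and Sfmbt2 (-0.44 in each) fell short. No paired analysis was possible because each genotype had 1 array, and for the same reason no array could be left out.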

Other observations

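Of the 41 other imprinted genes with a probe set, 19 did not pass the brightness filter and were outside the comparison. The values here were picked after they were seen, as those further from 0 than the -0.44 of Igf2r. The organic cation transporter genes Slc22a18, of the Cdkn1c cluster, and Slc22a2, of the Igf2r cluster, had 30.4 and 22.9 in Mili-/- against 9.4 and 8.9 in Mili+/- (1.58 and 1.25). Th, which encodes tyrosine hydroxylase, had 30.2 in Mili-/- and 13.8 in Mili+/- (1.02). Ddc, the neighbour of Grb10, had 30.5 in Mili-/- and 17.4 in Mili+/- (0.70), and Tspan32 had 22.8 in Mili-/- and 14.9 in Mili+/- (0.50). In the other direction, Impact had 6.4 in Mili-/-, under the floor, and 18.5 in Mili+/- (-1.51). Several of these signals lay near the floors of 7 in Mili-/- and 6.3 in Mili+/-, and no replicate array bears on them. The share of all genes below the filter with differences as large was not computed, so these values have no background to be read against.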
